A study of Homo sapiens with 18 samples.

Results

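The mRNAs of 5 genes linked to motor neuron disease and to the behaviour of RNA granules, TAF15, HNRNPA2B1, VCP, ATXN2 and ATXN2L, were followed through RNA immunoprecipitates and whole lysate of an astrocytoma line. They were chosen by name, as the array features (transcript clusters) that the platform annotation assigns to one of these symbols alone, and each gene had exactly 1 such feature. They are 5 of 14232 genes measured in this way, on arrays with 22011 transcript clusters.

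All groups came from U251-MG, an established human astrocytoma line, which the submitters list under brain as its source. Cells labelled stressed received 500 µM arsenite, an oxidative agent that halts translation and induces stress granules, and cells labelled unstressed received the vehicle DMSO; RNA was harvested after 30 min. The 6 groups were the TIAR RNA immunoprecipitate (RIP) of stressed cells, the TIAR RIP of unstressed cells, the G3BP1 RIP of stressed cells, the G3BP1 RIP of unstressed cells, the input RNA of stressed cells and the input RNA of unstressed cells. Each had 3 replicates labelled biological, and all 18 were hybridised to Affymetrix exon arrays; some labels name the TIAR antibody after TIAL1, the gene that encodes TIAR. No genotype, knockdown or further agent is named for any group, and the series asks which mRNAs are enriched in the 2 RIPs after arsenite, relative to unstressed RIPs and to input.

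Stress granules are cytoplasmic assemblies of mRNAs with stalled translation and RNA-binding proteins, among them TIAR and the assembly scaffold G3BP1. Ataxin-2, encoded by ATXN2, is a granule protein that binds poly(A)-binding protein, and repeat expansions in its gene cause a spinocerebellar ataxia or raise the risk of amyotrophic lateral sclerosis; ATXN2L encodes its paralogue, also a granule protein. TAF15 belongs with EWSR1 to the FET family of RNA-binding proteins with prion-like domains. HNRNPA2B1 encodes a nuclear ribonucleoprotein that binds pre-mRNA and takes part in RNA transport, and mutations in its prion-like domain cause multisystem proteinopathy. VCP is an ATPase that extracts ubiquitylated proteins from complexes and helps to clear granules, and its mutations cause the same disease group. The arrays measured the mRNAs of these genes and not their proteins.

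The array values are log2 signals, so a difference of 1 is a change of 2-fold, and they describe which RNAs make up a sample, while the amount recovered by an antibody was not measured. A RIP with a control antibody was not analysed here, so specific and nonspecific recovery cannot be told apart. In bulk RNA, fewer cells carrying an mRNA and less of it per cell cannot be told apart either. Of 10 astrocyte and glioma markers, 7 lay above the median signal of the input arrays, VIM at 13.1 and GFAP at 8.41, while ALDH1L1 (7.25), S100B (5.02) and AQP4 (4.92) did not. Markers above that median numbered 2 of 5 for neurons, 0 of 3 for oligodendrocytes, 0 of 4 for myeloid cells and 1 of 4 for endothelial cells. Replicate 1 of stressed input and replicate 3 of the unstressed G3BP1 RIP stood apart from their groups, with mean correlations to their own group of 0.98 each, against 0.985 to 0.995 on the other 16 arrays. Their weight in the results below is given wherever it decides the call of a member, and for some of the counts of related genes.

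TIAR is known to bind mRNAs that open with a terminal oligopyrimidine tract (a C followed by an unbroken run of C or T), so the annotated 5′ ends are shown for the 3 of 5 members that the RefSeq promoter table holds (build GRCh38.p14); TAF15 and ATXN2 are named only. Lower case marks the 10 bases before the annotated start and capitals the first 20 transcribed bases, 5′ to 3′ on the gene's strand. HNRNPA2B1 lies on the minus strand at chr7:26200727-26200756, VCP on the minus strand at chr9:35072606-35072635, and ATXN2L on the plus strand at chr16:28822989-28823018.
HNRNPA2B1: ctctagcggcAGTAGCAGCAGCGCCGGGTC
VCP: ttctcggctcAGTCTCAGCGAAGCGTCTGC
ATXN2L: tccgctccccGGCGACGCGCACGCGCGCCA
The first transcribed base is A in HNRNPA2B1 and VCP and G in ATXN2L. None of the 3 starts opens with a C followed by at least 4 further C or T, which 1429 of 35116 entries (4.07%) do. The match was sought at the annotated start on the gene's strand alone and is a description of these letters.

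ATXN2 had its highest signal in the TIAR RIP. It read 12.47, 12.35 and 12.47 log2 units in the TIAR RIP of stressed cells and 12.15, 12.07 and 12.05 in that of unstressed cells. In the G3BP1 RIP it read 11.53, 11.34 and 11.49 in stressed cells and 11.50, 11.53 and 11.15 in unstressed cells. In input it read 10.98, 11.11 and 11.15 in stressed cells and 11.18, 11.03 and 11.08 in unstressed cells. All 6 TIAR arrays therefore lay above all 12 others, and the stressed TIAR arrays lay above the unstressed ones. The group means, highest first, were 12.43 ± 0.07 (stressed TIAR RIP), 12.09 ± 0.05 (unstressed TIAR RIP), 11.45 ± 0.10 (stressed G3BP1 RIP), 11.40 ± 0.21 (unstressed G3BP1 RIP), 11.10 ± 0.08 (unstressed input) and 11.08 ± 0.09 (stressed input; SD, n = 3 each). From the stressed G3BP1 RIP downward, each group in that order overlapped the next.

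ATXN2L, the paralogue, followed the same order of fractions with another order of stress. It read 11.88, 11.97 and 11.88 in the TIAR RIP of stressed cells and 12.05, 11.99 and 12.04 in that of unstressed cells. The G3BP1 RIP gave 11.64, 11.55 and 11.71 in stressed cells and 11.29, 11.33 and 11.36 in unstressed cells. Input gave 10.53, 10.80 and 10.80 in stressed cells and 11.09, 11.09 and 11.03 in unstressed cells. No neighbouring groups overlapped in this order, which ran from 12.03 ± 0.03 in the unstressed TIAR RIP through 11.91 ± 0.05 in the stressed TIAR RIP, 11.63 ± 0.08 in the stressed G3BP1 RIP, 11.33 ± 0.04 in the unstressed G3BP1 RIP and 11.07 ± 0.03 in unstressed input to 10.71 ± 0.16 in stressed input (SD, n = 3 each). ATXN2L was the only member whose 6 group ranges were all separate.

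TAF15 had its lowest signal in the TIAR RIP and its highest in the G3BP1 RIP of unstressed cells. It read 9.67, 9.59 and 9.78 in the TIAR RIP of stressed cells and 9.13, 8.89 and 8.76 in that of unstressed cells. Its G3BP1 RIP readings were 10.70, 10.57 and 10.60 in stressed cells and 11.66, 11.49 and 11.21 in unstressed cells. Its input readings were 10.43, 10.69 and 10.73 in stressed cells and 10.53, 10.36 and 10.40 in unstressed cells. The stressed G3BP1 RIP (10.62 ± 0.07) overlapped stressed input (10.62 ± 0.16), which overlapped unstressed input (10.43 ± 0.09; SD, n = 3 each). The unstressed G3BP1 RIP (11.45 ± 0.22) stood above all other groups, and the stressed TIAR RIP (9.68 ± 0.09) and the unstressed TIAR RIP (8.93 ± 0.19) stood below them, each apart from its neighbours.

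HNRNPA2B1 was highest in input. It read 12.15, 11.84 and 12.25 in the TIAR RIP of stressed cells and 11.27, 11.14 and 11.02 in that of unstressed cells. On the G3BP1 arrays it read 12.54, 12.39 and 12.43 in stressed cells and 13.02, 12.99 and 12.66 in unstressed cells. On the input arrays it read 12.80, 13.11 and 13.10 in stressed cells and 12.96, 12.94 and 12.98 in unstressed cells. Stressed input (13.00 ± 0.18), unstressed input (12.96 ± 0.02) and the unstressed G3BP1 RIP (12.89 ± 0.20) overlapped. Below them, the stressed G3BP1 RIP (12.45 ± 0.08), the stressed TIAR RIP (12.08 ± 0.22) and the unstressed TIAR RIP (11.15 ± 0.12; SD, n = 3 each) were separate from one another.

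VCP was highest in the G3BP1 RIP, with and without arsenite. It read 11.75, 11.75 and 11.96 in the TIAR RIP of stressed cells and 10.96, 10.82 and 10.87 in that of unstressed cells. The G3BP1 RIP arrays read 13.37, 13.25 and 13.40 in stressed cells and 13.49, 13.41 and 13.06 in unstressed cells. The input arrays read 12.20, 12.29 and 12.31 in stressed cells and 12.05, 11.99 and 12.05 in unstressed cells. The G3BP1 groups overlapped at 13.34 ± 0.08 (stressed) and 13.32 ± 0.23 (unstressed), and the other 4 groups were each separate, from 12.27 ± 0.06 in stressed input and 12.03 ± 0.04 in unstressed input to 11.82 ± 0.12 in the stressed TIAR RIP and 10.88 ± 0.07 in the unstressed TIAR RIP (SD, n = 3 each).

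**Figure D1:**
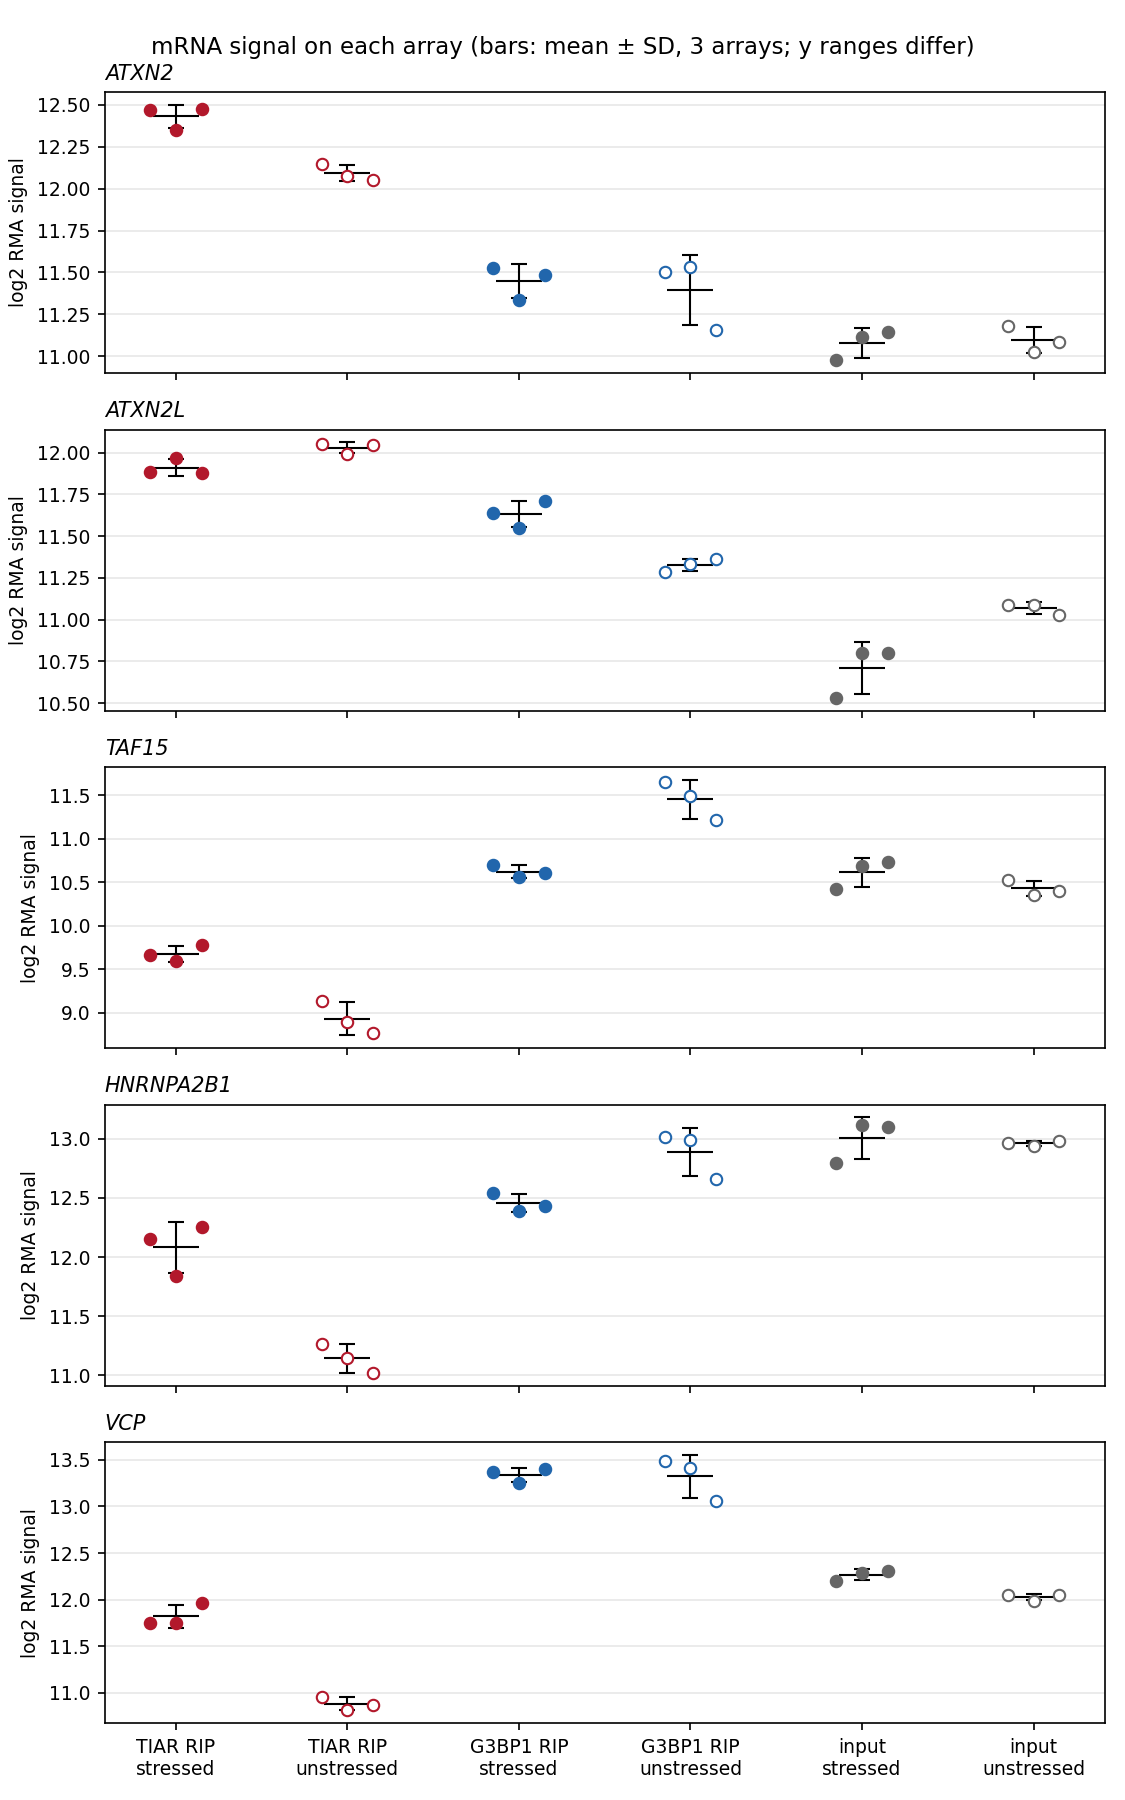
Log2 signal (vertical axes, with a different range in each panel) of the 5 mRNAs on each of the 18 arrays, by group; points are arrays, filled for stressed and open for unstressed cells, and bars are the mean ± SD of 3 arrays. ATXN2 and ATXN2L are highest in the TIAR RIPs, between 11.88 and 12.47, while TAF15, HNRNPA2B1 and VCP have their lowest values there, in unstressed cells.

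Each RIP was compared with the input of the same condition to ask which mRNAs were over- or under-represented beside the antibody's target. The 5 mRNAs split by gene in the TIAR RIP. ATXN2 and ATXN2L were higher than in input, and TAF15, HNRNPA2B1 and VCP were lower. In stressed cells the differences (TIAR RIP minus input, log2 ± SE of the fit) were 1.35 ± 0.10 for ATXN2, a 2.55-fold higher signal, and 1.20 ± 0.08 for ATXN2L, a 2.29-fold higher signal. They were -0.94 ± 0.12 for TAF15, -0.92 ± 0.12 for HNRNPA2B1 and -0.45 ± 0.10 for VCP. Without stress they were 1.00 ± 0.10 for ATXN2 and 0.96 ± 0.08 for ATXN2L. For TAF15, HNRNPA2B1 and VCP the unstressed TIAR RIP lay further below input, by 2.83-fold (-1.50 ± 0.12), 3.52-fold (-1.82 ± 0.12) and 2.21-fold (-1.14 ± 0.10). Tests were moderated tests in limma across all 22011 transcript clusters with Benjamini-Hochberg adjustment, called at an adjusted p under 0.05. All 10 of these TIAR differences were called, with adjusted p between 2.07e-08 and 0.00217, and no arrays overlapped.

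That count is read against a high background. In the stressed comparison 5 of 5 members were called, 2 higher and 3 lower, and so were 43.8% of all transcript clusters, 20.3% higher and 23.5% lower. In the unstressed comparison 5 of 5 were called in the same directions, and 40.6% of transcript clusters were, 16.8% higher and 23.8% lower. Among the 2275 genes with a mean signal at least that of TAF15, the dimmest member, the shares were 78.1% and 74.5%. Arrays failed to overlap for 51.9% of transcript clusters in stressed and 57.8% in unstressed cells. Of the measured genes, 659 lay further above input than ATXN2 in the stressed TIAR RIP, and 385 lay further below input than HNRNPA2B1 in the unstressed one. All 10 calls held under the 16 alternative settings tried for each, including the loss of any single array.

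In the G3BP1 RIP the split ran elsewhere. VCP was higher than in input by 1.07 ± 0.10 in stressed cells (2.10-fold, adjusted p = 7.18e-07) and by 1.29 ± 0.10 in unstressed cells (2.45-fold, adjusted p = 1.23e-07), the reverse of its position in the TIAR RIP. ATXN2L was higher by 0.92 ± 0.08 in stressed cells (1.89-fold, adjusted p = 2.41e-07) and by 0.26 ± 0.08 in unstressed cells (adjusted p = 0.0154). ATXN2 was higher by 0.37 ± 0.10 in stressed cells (adjusted p = 0.00613) and by 0.30 ± 0.10 in unstressed cells (adjusted p = 0.0234), where its arrays overlapped input. TAF15 was higher by 1.02 ± 0.12 in unstressed cells (2.03-fold, adjusted p = 7.42e-06), and in stressed cells its difference was 0.01 ± 0.12 (adjusted p = 0.965). HNRNPA2B1 was lower by -0.55 ± 0.12 in stressed cells (adjusted p = 0.00205) and its difference was -0.07 ± 0.12 in unstressed cells (adjusted p = 0.704).

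In stressed cells 4 of 5 members were called, 3 higher and 1 lower, where 44.4% of all transcript clusters (29.3% higher and 15.2% lower) and 63.6% of the bright genes were called; in unstressed cells 4 of 5 were called, all higher, where the shares were 39.8% (20.7% higher) and 67.2%. Members without overlap numbered 4 in stressed and 3 in unstressed cells, against 53.1% and 46.9% of transcript clusters. The small unstressed differences depended on single arrays: ATXN2 was not called without replicate 2 or 3 of unstressed input or replicate 1 or 2 of the unstressed G3BP1 RIP, and ATXN2L not without replicate 3 of unstressed input (adjusted p = 0.0571) or after quantile normalisation (0.22, adjusted p = 0.0597); neither was called in a fit of the compared groups alone. The stressed difference of ATXN2 was 0.16 after quantile normalisation and not called (adjusted p = 0.072). Quantile normalisation and cyclic loess gave TAF15 a called difference of -0.31 and -0.32 in the stressed comparison, so its direction there depends on the scaling.

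**Figure D2:**
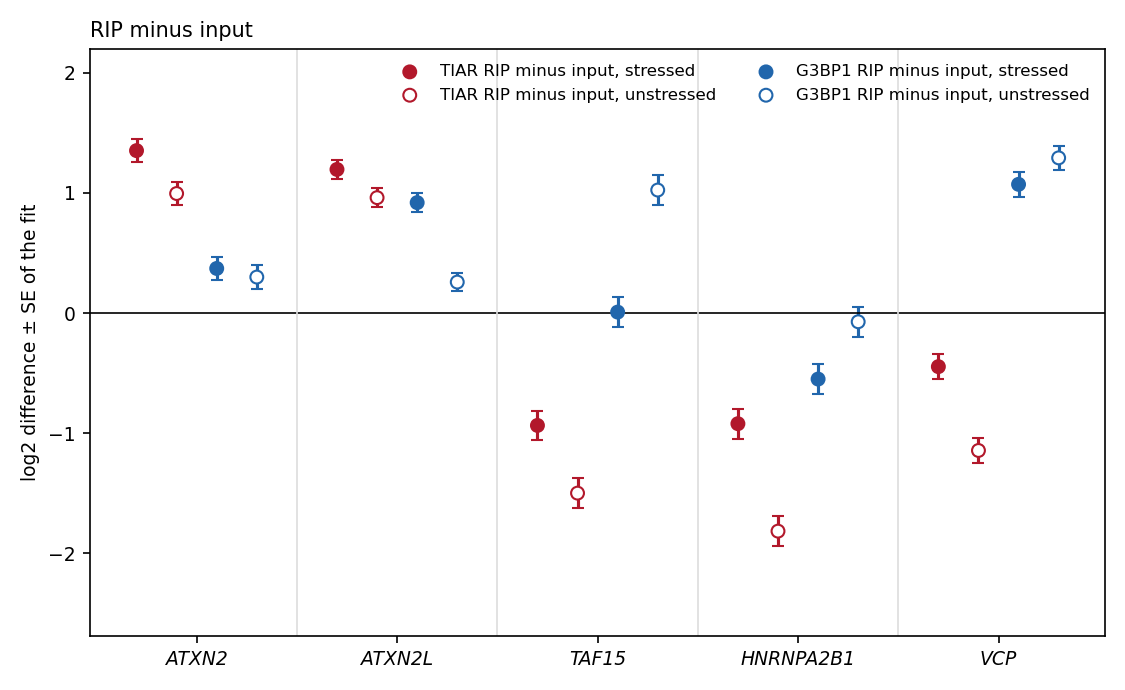
Log2 difference from input of the same condition (vertical axis) for each mRNA in the TIAR RIP (red) and the G3BP1 RIP (blue), stressed cells filled and unstressed cells open; bars are the SE of the fit on 18 arrays. ATXN2 and ATXN2L lie above 0 in both RIPs, TAF15, HNRNPA2B1 and VCP lie below 0 in the TIAR RIP, and VCP lies above 1 in the G3BP1 RIP.

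Arsenite was then compared with DMSO within each fraction. In the TIAR RIP, 4 of the 5 mRNAs were higher after arsenite: HNRNPA2B1 by 0.94 ± 0.12 (1.91-fold, adjusted p = 0.000174), VCP by 0.94 ± 0.10 (1.91-fold, adjusted p = 3.06e-05), TAF15 by 0.75 ± 0.12 (1.68-fold, adjusted p = 0.00081) and ATXN2 by 0.34 ± 0.10 (1.27-fold, adjusted p = 0.0341). The difference of ATXN2L was -0.12 ± 0.08 (adjusted p = 0.452), though its stressed and unstressed arrays did not overlap. The 3 mRNAs with the largest rise were the 3 that lay furthest below input without stress, and after arsenite they remained below stressed input. These comparisons share the arrays of the TIAR RIP, so a low unstressed value enters both differences.

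The 4 calls, all higher, compare with 11.9% of transcript clusters called in this comparison and 6.15% called higher; among the bright genes 32.7% were called and 20.2% were higher. All 5 members had separate arrays, as had 31.4% of transcript clusters. The median difference was 0.75 over the members, against -0.02 over all measured genes and 0.05 over the bright ones. For arsenite in the G3BP1 RIP these medians were 0.02, 0.01 and 0.15, and in input 0.04, -0.06 and -0.18. The members were chosen with earlier results of these data known. In the TIAR RIP only 127 of the measured genes rose by more than HNRNPA2B1, 128 by more than VCP and 288 by more than TAF15. The rises of TAF15, HNRNPA2B1 and VCP stayed called under all 16 settings, while that of ATXN2 was lost without replicate 1 or 3 of the stressed or any replicate of the unstressed TIAR RIP (adjusted p from 0.0619 to 0.114).

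In the G3BP1 RIP the same treatment moved other members. TAF15 was lower after arsenite by -0.83 ± 0.12 (1.78-fold lower, adjusted p = 0.000347), with only 88 measured genes falling further. HNRNPA2B1 was lower by -0.43 ± 0.12 (adjusted p = 0.0284), and ATXN2L was higher by 0.31 ± 0.08 (1.24-fold, adjusted p = 0.0156). The differences of ATXN2 (0.05 ± 0.10, adjusted p = 0.821) and VCP (0.02 ± 0.10, adjusted p = 0.956) were not called. The count was 3 of 5, 1 higher and 2 lower, where 14.5% of transcript clusters were called, 10.4% higher and 4.08% lower, and where 36.6% of the bright genes were. The same 3 members had separate arrays, as had 26.7% of transcript clusters.

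The fall of TAF15 held in all 16 settings, and without both arrays that stood apart it was -0.95. The call of HNRNPA2B1 was lost without any replicate of the stressed G3BP1 RIP or without replicate 1 or 2 of the unstressed one (adjusted p from 0.0506 to 0.102), and was kept, at -0.55, without replicate 3 of the unstressed RIP, which stood apart. The call of ATXN2L was lost without replicate 1 or 3 of the stressed or replicate 1 of the unstressed G3BP1 RIP (adjusted p from 0.0508 to 0.0708), in a fit of the compared groups alone (adjusted p = 0.146), and under all 3 rescalings of the arrays: median centring (0.25, adjusted p = 0.0532), quantile normalisation (0.26, adjusted p = 0.0623) and cyclic loess (0.24, adjusted p = 0.0758).

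In input RNA, which holds the RNA of the whole lysate, a single member was called after arsenite. ATXN2L was lower by -0.36 ± 0.08 (1.28-fold lower, adjusted p = 0.00681). VCP differed by 0.24 ± 0.10 (adjusted p = 0.149) with separate arrays, TAF15 by 0.19 ± 0.12 (adjusted p = 0.369), HNRNPA2B1 by 0.04 ± 0.12 (adjusted p = 0.872) and ATXN2 by -0.02 ± 0.10 (adjusted p = 0.938). This was 1 of 5, where 13.7% of transcript clusters (11.2% lower) and 31.4% of the bright genes were called; arrays were separate for 2 members and for 34.3% of transcript clusters. Without both arrays that stood apart, VCP was called as well, at 0.27 (adjusted p = 0.0248). The input call of ATXN2L was lost after quantile normalisation, at -0.19 (adjusted p = 0.179), after cyclic loess, at -0.23 (adjusted p = 0.0989), and in a fit of the compared groups alone (adjusted p = 0.0936).

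**Figure D3:**
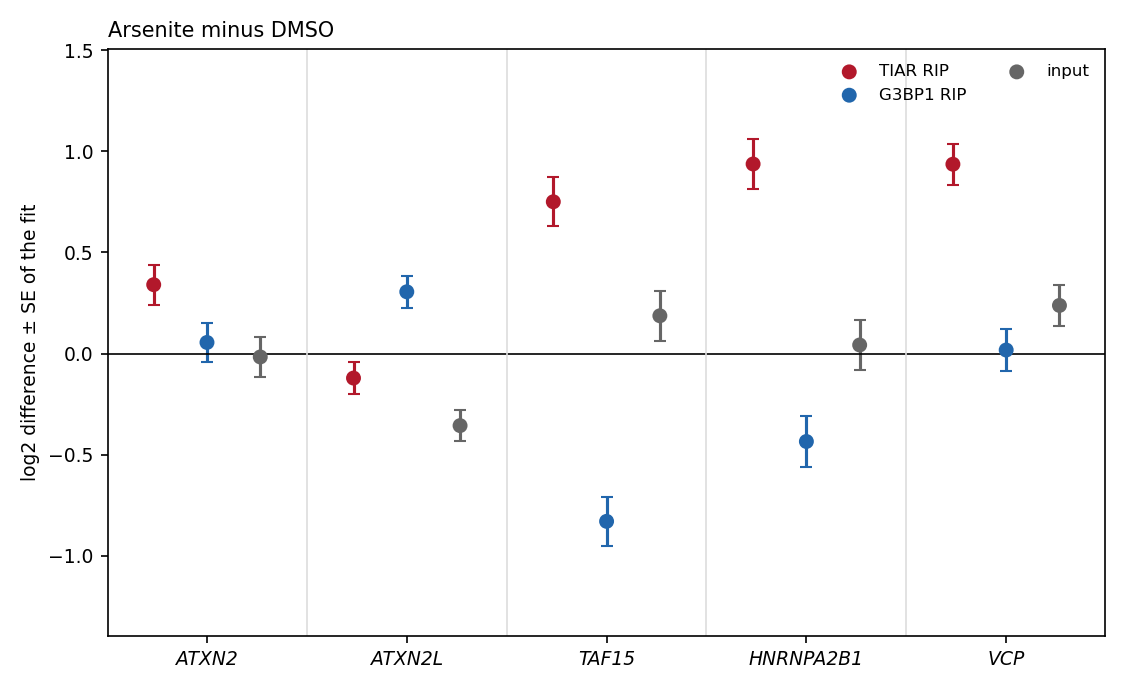
Log2 difference between stressed (arsenite) and unstressed (DMSO) cells (vertical axis) for each mRNA in the TIAR RIP (red), the G3BP1 RIP (blue) and input (grey); bars are the SE of the fit. TAF15 and HNRNPA2B1 lie above 0 in the TIAR RIP and below 0 in the G3BP1 RIP, and ATXN2L lies above 0 in the G3BP1 RIP and below 0 in input.

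The design text defines the stress-associated mRNAs of a RIP by both comparisons, against the unstressed RIP and against input. Higher in both was 1 of 5 members in the TIAR RIP, ATXN2, and 1 of 5 in the G3BP1 RIP, ATXN2L. That share compares with 1.75% of transcript clusters and 6.99% of bright genes in the TIAR RIP, and with 5.77% and 13.7% in the G3BP1 RIP. Both rest on small arsenite differences: the call at 0.34 for ATXN2 was lost without single arrays, and that at 0.31 for ATXN2L without single arrays and under each of the 3 rescalings.

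The 2 RIPs were set against each other within each condition. In stressed cells (TIAR RIP minus G3BP1 RIP) ATXN2 was higher by 0.98 ± 0.10 and ATXN2L by 0.28 ± 0.08, while VCP was lower by -1.52 ± 0.10, TAF15 by -0.94 ± 0.12 and HNRNPA2B1 by -0.37 ± 0.12. In unstressed cells ATXN2 and ATXN2L were each higher by 0.70, and TAF15 was 5.75-fold lower (-2.52 ± 0.12, adjusted p = 2.13e-10), VCP 5.41-fold lower (-2.44 ± 0.10, adjusted p = 4.87e-11) and HNRNPA2B1 3.35-fold lower (-1.74 ± 0.12, adjusted p = 1.34e-08). Of all measured genes, 171 lay further to the G3BP1 side than TAF15 in unstressed cells, and 217 further than VCP. All 5 members were called in stressed cells, where 44.3% of transcript clusters (15.6% higher and 28.7% lower) and 75.6% of bright genes were. All 5 were called in unstressed cells too, where 46.8% of transcript clusters (19.3% higher and 27.5% lower) and 78.1% of bright genes were. The arrays of every member were separate in both, as were those of 58.2% and 51.8% of transcript clusters. The stressed difference of HNRNPA2B1 (adjusted p = 0.0234) was lost without replicate 2 of the stressed TIAR RIP (adjusted p = 0.129) or replicate 1 of the stressed G3BP1 RIP (adjusted p = 0.0842), and after median centring it was -0.15 (adjusted p = 0.218).

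Whether arsenite acted differently on the fractions was tested as a difference of differences. Between the 2 RIPs, the arsenite change in the TIAR RIP exceeded that in the G3BP1 RIP by 1.58 ± 0.17 for TAF15 (adjusted p = 4.53e-05), 1.37 ± 0.18 for HNRNPA2B1 (adjusted p = 0.000155) and 0.92 ± 0.14 for VCP (adjusted p = 0.000648). For ATXN2L it was lower, by -0.43 ± 0.11 (adjusted p = 0.0177), though not called after cyclic loess (-0.37, adjusted p = 0.0617), and for ATXN2 the difference was 0.29 ± 0.14 (adjusted p = 0.229). Only 25 measured genes had a larger positive difference than TAF15 and 58 a larger one than HNRNPA2B1. The 4 calls, 3 higher and 1 lower, compare with 13.6% of transcript clusters, 5.05% higher and 8.55% lower, and with 35.5% of the bright genes. Without both arrays that stood apart, ATXN2 was called too, at 0.41 (adjusted p = 0.00736).

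Against input, the arsenite change in the G3BP1 RIP was lower for TAF15 by -1.02 ± 0.17 (adjusted p = 0.000975, with 51 genes lower still) and higher for ATXN2L by 0.66 ± 0.11 (adjusted p = 0.000871). This was 2 of 5, where 16.9% of transcript clusters (14.3% higher and 2.65% lower) and 41.5% of bright genes were called. Both calls held in all 22 settings. HNRNPA2B1 (-0.48 ± 0.18, adjusted p = 0.0799), VCP (-0.22 ± 0.14, adjusted p = 0.35) and ATXN2 (0.07 ± 0.14, adjusted p = 0.787) were not called. Without both arrays that stood apart, HNRNPA2B1 was called at -0.70 (adjusted p = 0.00456) and VCP at -0.38 (adjusted p = 0.0218).

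Against input, the arsenite change in the TIAR RIP was higher for HNRNPA2B1 by 0.89 ± 0.18 (adjusted p = 0.0371) and for VCP by 0.70 ± 0.14 (adjusted p = 0.0438). TAF15 (0.56 ± 0.17, adjusted p = 0.162), ATXN2 (0.36 ± 0.14, adjusted p = 0.286) and ATXN2L (0.24 ± 0.11, adjusted p = 0.393) were not called. This was 2 of 5 members, both higher, in a comparison that called 0.654% of transcript clusters (0.604% higher) and 2.59% of bright genes. Both calls sat close to the threshold: that of VCP was lost without any single array of the 12 (adjusted p from 0.0555 to 0.142), and that of HNRNPA2B1 was lost without 9 of the 12 single arrays, being kept without replicate 2 of the stressed TIAR RIP or replicate 2 or 3 of stressed input. Without both arrays that stood apart the values were 0.79 (adjusted p = 0.0131) and 0.67 (adjusted p = 0.00683).

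Over the 18 arrays the members fell into the division that the TIAR RIP showed against input, and the same arrays enter both views. The G3BP1 RIP did not show that division. Pearson's r was 0.87 between ATXN2 and ATXN2L, 0.899 between TAF15 and VCP, 0.878 between TAF15 and HNRNPA2B1 and 0.683 between HNRNPA2B1 and VCP. Between the ataxin-2 genes and the other 3 members it was negative, from -0.35 (VCP with ATXN2L) to -0.84 (HNRNPA2B1 with ATXN2L). The arrays share fraction and treatment, so these values describe the 6 groups more than 18 independent points.

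The genes most like each member over the 18 arrays, of 14227 other genes, were taken by the highest Pearson's r. For TAF15 they were NASP (0.992), which encodes a histone chaperone, IK (0.989) and PWP1 (0.982), and 358 genes exceeded 0.9. For HNRNPA2B1 they were NDC80 (0.984), which encodes a kinetochore protein, PAK1IP1 (0.978) and PCMT1 (0.976), with 113 genes above 0.9. For VCP they were PRMT5 (0.996), an arginine methyltransferase gene, PKM (0.995), which encodes a glycolytic enzyme, and OS9 (0.992), whose product acts in the disposal of misfolded glycoproteins, with 758 genes above 0.9. VCP thus had the most common profile of the 5. For ATXN2 they were FAM168A (0.976), LMLN (0.975) and KLF5 (0.972), which encodes a transcription factor, with 248 genes above 0.9. For ATXN2L they were AFF2 (0.986), RIPOR1 (0.982) and ADAM12 (0.976), which encodes a metalloproteinase, with 223 above 0.9.

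Related genes were described from 4 lists. Of 15 partners of the ataxin-2 family in poly(A) mRNA complexes and granules, 10 were measured under a single symbol (PABPC1 and 4 others were not analysed here). In the TIAR RIP of stressed cells 8 of the 10 were higher than in input and 0 lower, with a median of 0.71 against -0.05 over all measured genes. Over all measured genes 24.4% were higher than input in that comparison and 22.9% lower. Among the bright genes 48.1% were higher, with a median of 0.26. Of the list, DDX6, an RNA helicase of P-bodies, was higher by 1.19 ± 0.11 and UBAP2L by 1.00 ± 0.08. FAM120A was higher by 0.80 ± 0.07 and STAU1, a double-stranded RNA-binding protein gene, by 0.64 ± 0.08. In the TIAR RIP of unstressed cells 9 were higher and 1 lower, where 39.5% of the bright genes were higher and 35% lower. Of all measured genes 20.2% were higher and 23.4% lower there. The G3BP1 RIP of stressed cells had 4 higher and 2 lower, with a median of -0.03, where 47.6% of the bright genes were higher and 16% lower. Of all measured genes 35.3% were higher and 9.9% lower in that RIP. Each of the 3 rescalings gave 3 of the list higher and 4 lower there, so that balance depends on the scaling. In the main analysis arsenite left most of the list uncalled. In the TIAR RIP 1 was higher (UBAP2L, 0.42 ± 0.08) and 2 were lower (FAM120A, -0.57 ± 0.07, and LSM14A, -0.36 ± 0.09). In the G3BP1 RIP STAU1 was higher (0.27 ± 0.08) and CAPRIN1 lower (-0.40 ± 0.08). These arsenite calls made up 30% of the list in the TIAR RIP and 20% in the G3BP1 RIP. The shares were 13.3% and 16% over all measured genes, and 32.7% and 36.6% over the bright ones. With both arrays that stood apart left out, the stressed TIAR RIP had 8 of the list higher and 0 lower, and arsenite in the G3BP1 RIP had 2 higher and 4 lower. For arsenite in the G3BP1 RIP, median centring and cyclic loess also gave 2 higher and 4 lower. Quantile normalisation gave 1 higher and 4 lower there.

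Of 12 relatives of TAF15 and HNRNPA2B1 (FET, hnRNP and similar RNA-binding proteins), 7 were measured under a single symbol and the other 5 were not analysed here. In the stressed TIAR RIP 5 were lower than input and 2 higher, with a median of -0.52, where 30% of the bright genes were lower and 48.1% higher. Of all measured genes 22.9% were lower and 24.4% higher there. HNRNPAB was lower by -0.62 ± 0.08, HNRNPD by -0.52 ± 0.11 and TIAL1, the gene of TIAR itself, by -0.73 ± 0.15, while TIA1, the gene of its paralogue, was higher by 1.20 ± 0.20. After arsenite 3 of the 7 were lower in the G3BP1 RIP and 0 higher: HNRNPD by -1.16 ± 0.11, HNRNPA0 by -0.94 ± 0.11 and HNRNPAB by -0.49 ± 0.08, with a median of -0.33 against 0.01 over all measured genes. EWSR1, of the FET family like TAF15, did not share the fall of TAF15 there, at 0.22 ± 0.20 (adjusted p = 0.596). In that comparison 4.12% of all measured genes and 9.05% of the bright genes were called lower. In the TIAR RIP limma called 0 of 7 after arsenite (3 at an unadjusted p under 0.05), with 0.32 ± 0.11 for HNRNPD and -0.31 ± 0.11 for HNRNPA0. It called 13.3% of all measured genes and 32.7% of the bright genes in that comparison. That comparison, with both arrays that stood apart left out, called 2 higher and 1 lower. Neither is a TIAR array, so its differences were unchanged and only the estimate of the spread moved. Cyclic loess called 3 higher and 1 lower there. Arsenite in the G3BP1 RIP had 4 of the list lower without both arrays.

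Of 34 cofactors and adaptors of VCP, 30 were measured, and they moved in both directions. In the stressed TIAR RIP 12 were higher than input and 8 lower. The ubiquitin ligase genes UBE4B (1.37 ± 0.11) and UBE4A (1.13 ± 0.09) were higher, and the UBX-domain genes ASPSCR1 (-1.61 ± 0.11) and UBXN1 (-1.12 ± 0.11) were lower. In the stressed G3BP1 RIP 16 were higher and 5 lower. The calls made up 66.7% of the list in the TIAR RIP and 70% in the G3BP1 RIP. The shares were 47.3% and 45.2% over all measured genes, and 78.1% and 63.6% over the bright ones. After arsenite the TIAR RIP had 4 higher and 3 lower, with SYVN1, a ligase of endoplasmic reticulum quality control, at 0.80 ± 0.08 and the autophagy kinase ULK2 at -1.12 ± 0.17. The G3BP1 RIP had 5 higher and 2 lower, with SYVN1 at 1.04 ± 0.08 and PLAA at -0.88 ± 0.10. In each RIP 23.3% of the list was called after arsenite. The shares were 13.3% (TIAR RIP) and 16% (G3BP1 RIP) over all measured genes, and 32.7% and 36.6% over the bright ones. Leaving out both arrays that stood apart gave arsenite in the G3BP1 RIP 4 higher and 7 lower. Cyclic loess gave the stressed G3BP1 RIP against input 11 higher and 10 lower, so the balance of this list depends on the arrays and the scaling.

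Of 29 other genes of motor neuron and related disease, 20 were measured. In the stressed TIAR RIP 6 were higher than input and 6 lower, with SPG11 at 1.24 ± 0.16, the superoxide dismutase gene SOD1 at -1.99 ± 0.13 and the progranulin gene GRN at -0.86 ± 0.09. In the stressed G3BP1 RIP 9 were higher and 2 lower, with the dynactin gene DCTN1 at 1.86 ± 0.11 and GRN at 1.42 ± 0.09. Of the bright genes 48.1% were higher and 30% lower in the stressed TIAR RIP, and 47.6% and 16% in the stressed G3BP1 RIP. Over all measured genes these shares were 24.4% and 22.9%, and 35.3% and 9.9%. After arsenite 2 of the 20 were higher in the TIAR RIP, the co-chaperone gene DNAJC7 (1.07 ± 0.10) and GRN (1.00 ± 0.09), and 0 were lower. In the G3BP1 RIP 1 was higher, GRN (0.83 ± 0.09), and 5 were lower, among them SOD1 (-0.99 ± 0.13), SPG11 (-0.92 ± 0.16) and KIF5A (-0.38 ± 0.09). KIF5A was dim, with a mean signal of 7.13 and 36.7% of transcript clusters at or below it. Of the bright genes 20.2% were higher and 12.5% lower after arsenite in the TIAR RIP, and 27.5% and 9.05% in the G3BP1 RIP. Over all measured genes these shares were 6.15% and 7.15%, and 11.9% and 4.12%. When both arrays that stood apart were left out, 7 of the list were higher and 0 lower in the TIAR RIP after arsenite, and 1 was higher and 8 were lower in the G3BP1 RIP. Neither is a TIAR array, so the differences in the TIAR RIP were unchanged and only the estimate of the spread moved. DNAJC7 was the single gene of the 4 lists whose arsenite change in the TIAR RIP differed from that in input (1.17 ± 0.14, adjusted p = 0.00227).

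**Figure D4:**
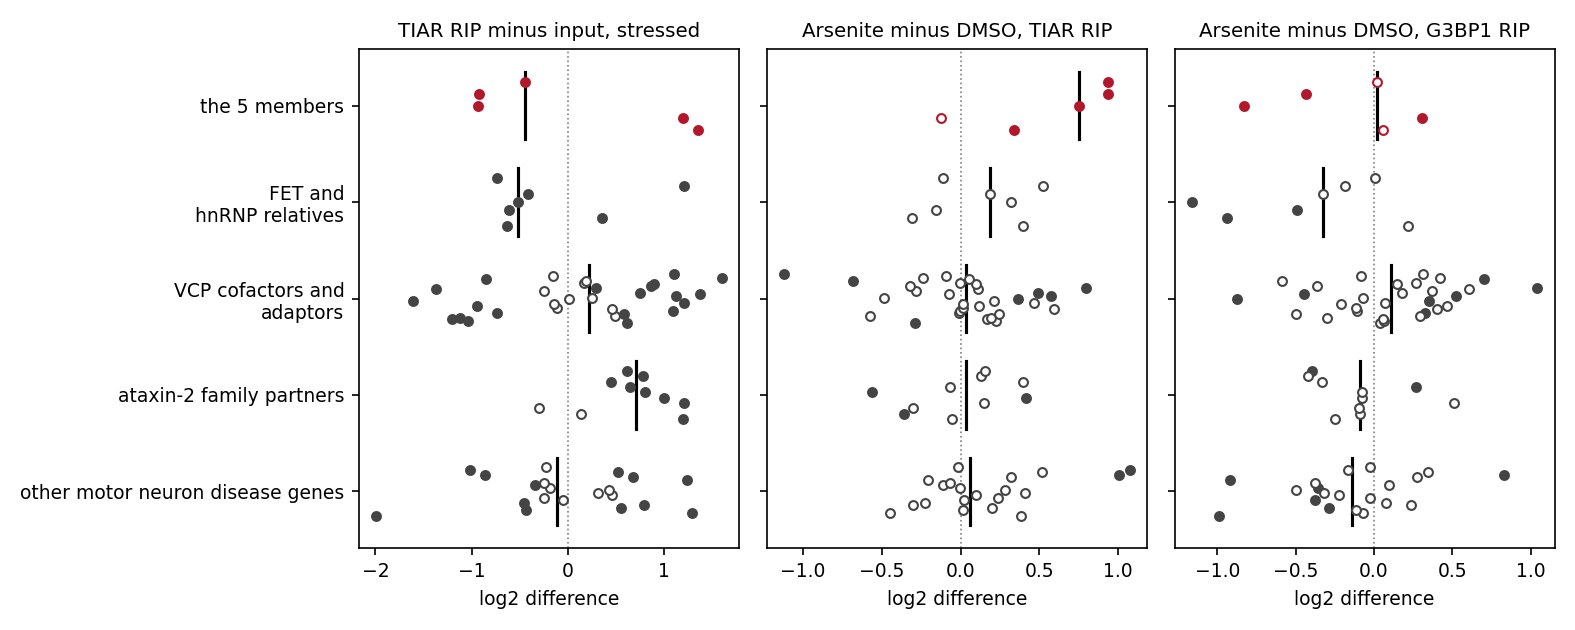
Log2 differences (horizontal axes) of the 5 members (red) and of the measured genes of the 4 related lists (grey) for the stressed TIAR RIP minus stressed input, for arsenite minus DMSO in the TIAR RIP and for arsenite minus DMSO in the G3BP1 RIP; filled points have an adjusted p under 0.05 and vertical bars are medians. The ataxin-2 family partners lie mostly to the right of 0 in the left panel (median 0.71), and the FET and hnRNP relatives lie mostly to the left of 0 in the right panel (median -0.33).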

How the data were processed

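RNA was measured on 18 Affymetrix exon arrays, 3 per group, and groups were taken from the labels. The deposited values are log2 signals per transcript cluster, made by the authors with RMA in Affymetrix Expression Console, per the submitters' processing notes; the version, build, probe-set level and joint normalisation were not given in the sources used here. RMA normalises within the arrays it is run on, so differences between RIP and input are relative to each array's composition. Values ran from 1.64 to 14.5, and the number of arrays limits the precision.

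The platform table names 1 gene for 14432 of 22011 transcript clusters (65.6%), and the brightest was used per gene. With limma 3.58.1 under R 4.3.3, lmFit estimated a mean per group from the 18 arrays together and eBayes moderated the variances, with no filter and 12 residual degrees of freedom. Tests were two-sided, adjusted over all transcript clusters within each of 12 comparisons that share arrays. P-values measure the spread between replicates labelled biological. The procedure was tested on simulated data. Named genes were the members, the 3 most correlated genes per member and up to 4 genes by smallest p per list and comparison. EWSR1 was also named for arsenite in the G3BP1 RIP, as a FET relative of TAF15. The members and lists were chosen with earlier results of these data known. Alternatives covered a replicate block, array weights, an intensity trend, filters, 3 rescalings, the compared groups alone, each array left out, and both arrays that stood apart left out; the list counts under rescaling and without both arrays were added after seeing the data.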

Additional observations from a re-analysis of the deposited data

Results flagged for a closer look

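In these results the arsenite change of a member differed between fractions by a test of the difference itself (limma, adjusted over all transcript clusters). The comparisons share arrays. Groups of 3 arrays were not tested for outlying single values, though each array was left out in turn. Between the TIAR RIP and the G3BP1 RIP the difference was 1.58 for TAF15, 1.37 for HNRNPA2B1, 0.92 for VCP and -0.43 for ATXN2L, the last not called after cyclic loess. Between the G3BP1 RIP and input it was -1.02 for TAF15 and 0.66 for ATXN2L. Between the TIAR RIP and input it was 0.89 for HNRNPA2B1 and 0.70 for VCP. These last calls were the least stable, kept in 11 of 22 settings for HNRNPA2B1 and in 9 of 22 for VCP. That of VCP was lost without any single array of the compared groups. TAF15 and HNRNPA2B1 were higher after arsenite in the TIAR RIP and lower in the G3BP1 RIP, with separate arrays in both.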

How the results depend on the processing

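Among differences called in the main analysis, 0 changed sign under any setting: across settings other than leaving out 1 array 422 of 440 values kept their call and 18 lost it, and across single arrays left out 271 of 312 kept it and 41 lost it. The number of members called moved as follows. For arsenite in input it was 1, but 3 after median centring, 2 with array weights, quantile normalisation, cyclic loess or both outlying arrays left out, and 0 in a fit of the compared groups alone. For arsenite in the G3BP1 RIP it was 3, but 2 after each of the 3 rescalings (ATXN2L was lost), 1 with the compared groups alone and 1 to 3 with single arrays left out. For the unstressed G3BP1 RIP against input it was 4, but 2 with the compared groups alone and 2 to 4 with single arrays left out. For the arsenite change in the TIAR RIP against input it was 2, but 0 with the replicate block, 4 with array weights, 1 with the compared groups alone and 0 to 1 with single arrays left out. For the arsenite change in the G3BP1 RIP against input it was 2, but 4 with array weights, median centring, cyclic loess or both outlying arrays left out, and 2 to 4 with single arrays left out. In the other 7 comparisons single arrays left out moved the number by at most 1.

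The replicate numbers did not pair the samples (deviations of same-numbered arrays correlated from -0.41 to 0.42, above 0.1 in 14 of 45 pairs), and a block on the number also ended the call of ATXN2 for arsenite in the TIAR RIP (adjusted p = 0.0517).

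Values that changed sign were all uncalled in the main analysis, the largest of them 0.24. They are given for array weights, median centring, quantile normalisation, cyclic loess and both outlying arrays left out, in that order where all apply. ATXN2 for arsenite in input (main -0.02) was 0.022, 0.079, 0.11, 0.097 and 0.035, and -0.052 to 0.035 with single arrays left out. ATXN2 for arsenite in the G3BP1 RIP (0.05) was -0.063, -0.0022, -8.5e-06, -0.0055 and -0.066, and -0.066 to 0.12 with single arrays left out. TAF15 in the stressed G3BP1 RIP against input (0.01) was -0.067, -0.16, -0.31, -0.32 and -0.086, and -0.086 to 0.066 with single arrays left out. ATXN2 for the arsenite change in the G3BP1 RIP against input (0.07) was -0.086, -0.081, -0.11, -0.10 and -0.10, and -0.049 to 0.14 with single arrays left out. VCP for arsenite in the G3BP1 RIP (0.02) was -0.13 with array weights, -0.040 with centring, -0.033 with loess and -0.11 without both arrays, and -0.11 to 0.10 with single arrays left out. HNRNPA2B1 in the unstressed G3BP1 RIP against input (-0.07) was 0.036 when arrays were weighted and 0.043 without both arrays, and -0.14 to 0.043 with single arrays left out. HNRNPA2B1 for arsenite in input (0.04) was -0.012 to 0.14 with single arrays left out. ATXN2L for the arsenite change in the TIAR RIP against input (0.24) was -0.026 after quantile normalisation. The cause of these shifts was not tested.

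Median centring moved the median of all transcript clusters by over 0.1, for example to -0.14, against 0.03, in the stressed G3BP1 RIP against input and to 0.12, against -0.05, in the unstressed TIAR RIP against input. Averaging several features per gene was not run, since each member has 1. Probe sequences were not used, so cross-hybridisation with related genes was not tested. Depth is not defined for arrays, and replicates numbering 3 per group limit the smallest difference that can be called.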
